A study of Mus musculus with 12 samples.

Results

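The collagen genes of mouse plantaris muscle are described here on 12 arrays. Members are the rows of the deposited table whose single gene symbol on the platform has the form Col, a number, a and a number, such as Col1a1, with the row of highest mean over the 12 arrays kept for a gene that has several. The rule found 47 rows for 44 collagen genes, of 22180 genes in all. Genes entered the tests if at least 3 arrays showed a log2 value over 4.56, the median of all deposited values. This kept 42 collagens of 13747 genes tested, while Col6a4 and Col10a1 were over it on 0 arrays. Another row, annotated to Col6a1 together with a further symbol, was left out.

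Collagens are extracellular proteins of 3 chains wound into a triple helix, and most muscle collagen is made by fibroblasts of the connective tissue around and between the fibres. Fibril-forming collagens give that tissue its tensile strength. Network-forming type IV collagen and the beaded filaments of type VI collagen sheathe each fibre, and fibril-associated collagens decorate the fibril surface and link it to its surroundings. Chains are hydroxylated and folded in the endoplasmic reticulum, trimmed by procollagen proteases outside the cell and cross-linked by lysyl oxidases.

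The arrays came from 4 groups of 3 male mice aged 12 weeks, labelled Wild Type or REDD1 Knockout and Sedentary or Exercise. Exercised mice did 1 aerobic bout that ended 1 hour before the muscle was taken under isoflurane, and every mouse fasted for 3 hours before the time of exercise. REDD1, the product of Ddit4, restrains the growth kinase complex mTORC1. The labels do not say which part of Ddit4 was deleted, in which cells, or on which strain background, and they name no litter, batch or pooling, so p-values measure the spread between these samples. In whole muscle, fewer cells of a type and less RNA per cell cannot be told apart.

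The stretches just before the start sites of 4 members are shown as examples. Each of these members had an unadjusted p under 0.05 for exercise in the knockout and a window that ends at the annotated start. Other members under that p, among them Col5a1, Col5a3, Col6a3 and Col15a1, also have a window and are not shown. The stretches shown are the 250 bases before the annotated start in RefSeq GRCm38.p6, 5′ to 3′ on the gene's strand, and none overlaps another annotated gene. Capitals mark a CCAAT box (CCAAT or its reverse complement ATTGG), a GC box (GGGCGG or CCGCCC) or a TATA box (TATAAA or TTTATA). Col1a2 lies on the plus strand at chr6:4505368-4505617, Col3a1 on the plus strand at chr1:45311288-45311537, Col6a1 on the minus strand at chr10:76726045-76726294 and Col6a2 on the minus strand at chr10:76623631-76623880.
Col1a2: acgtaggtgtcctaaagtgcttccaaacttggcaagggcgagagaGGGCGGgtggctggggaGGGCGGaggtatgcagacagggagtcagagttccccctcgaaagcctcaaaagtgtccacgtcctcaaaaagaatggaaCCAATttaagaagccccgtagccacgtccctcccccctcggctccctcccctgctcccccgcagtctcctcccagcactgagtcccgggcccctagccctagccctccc
Col3a1: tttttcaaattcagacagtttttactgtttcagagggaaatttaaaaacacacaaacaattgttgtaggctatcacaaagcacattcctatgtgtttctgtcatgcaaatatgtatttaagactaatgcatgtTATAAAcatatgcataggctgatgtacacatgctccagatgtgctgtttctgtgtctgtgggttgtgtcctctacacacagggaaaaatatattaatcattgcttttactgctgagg
Col6a1: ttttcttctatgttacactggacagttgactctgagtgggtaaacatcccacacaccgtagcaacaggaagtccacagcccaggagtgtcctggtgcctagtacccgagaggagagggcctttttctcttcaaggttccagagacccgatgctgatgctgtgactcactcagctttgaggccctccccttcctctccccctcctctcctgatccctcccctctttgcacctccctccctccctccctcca
Col6a2: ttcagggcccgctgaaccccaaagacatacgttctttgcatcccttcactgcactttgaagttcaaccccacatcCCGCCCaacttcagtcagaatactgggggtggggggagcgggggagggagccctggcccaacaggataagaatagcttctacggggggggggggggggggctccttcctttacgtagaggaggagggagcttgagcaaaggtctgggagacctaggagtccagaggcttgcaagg
The Col1a2 stretch holds 2 GC boxes and 1 CCAAT box, Col3a1 holds 1 TATA box, Col6a2 holds 1 GC box on the other strand, and Col6a1 holds none of these letters. Among 38 windows available for 35 of the collagen genes, 13 held a CCAAT box, 22 a GC box and 5 a TATA box. Of all 32851 windows of the same length, 33.8% held a CCAAT box, 32.7% a GC box and 12.4% a TATA box. A match is a description of the letters and not of a bound site.

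Arrays resembled each other, with Pearson's r across rows between 0.967 and 0.985 for any pair of arrays. The first wild-type exercised array was the lowest of 12 for 18.6% of all genes tested, and for 4 of 42 collagens. The first knockout exercised array was the lowest of 12 for 14.1% of all genes tested, and for 3 of 42 collagens. Ddit4, the gene targeted in the knockout, had levels of 6.13, 5.83 and 6.02 in sedentary wild types, 9.05, 8.398 and 8.62 in exercised wild types, 5.32, 5.44 and 5.08 in sedentary knockouts, and 6.46, 5.72 and 6.77 in exercised knockouts. It was lower in every knockout array than in every wild-type array of the same condition, with a mean log2 difference between knockout and wild type of -1.54 over both conditions (SE 0.16, limma adjusted p = 0.000137). The difference was -0.71 in sedentary mice (SE 0.22, adjusted p = 0.411) and -2.37 in exercised mice (SE 0.22, adjusted p = 0.00011). In the knockout, Ddit4 still stood 1.04 higher after exercise (SE 0.22, adjusted p = 0.0679). All 12 muscle fibre markers, among them Myh4, Ckm and Pvalb, passed the filter, and their mean level on an array stayed between -0.05 and 0.05 around the 12-array mean. The third knockout sedentary array stood apart in the matrix genes, as described with the results it touches. Of the 42 collagens tested, 29 were highest on it within its group, against 36.5% of all genes, and 19 were higher there than on any of the other 11 arrays, against 11.2% of all genes.

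Of 42 collagens, 0 passed the test in each of 7 comparisons (limma, adjusted p under 0.05 over all genes tested). The share of all genes called was 0.567% for exercise in wild type, 0.276% for exercise in the knockout, 0% for the difference of these effects, 0.138% for genotype in sedentary mice, 0.175% for genotype in exercised mice, 1.60% for exercise averaged over genotypes and 0.546% for genotype averaged over conditions. After exercise in the knockout, 33 of 42 collagens had a log2 fold change below 0, where 50.6% of all genes did, with a median of -0.16 against 0.00 over all genes. In wild type, 30 of 42 lay above 0, where 45.0% of all genes did, with a median of 0.07 against -0.02. An unadjusted p under 0.05 was reached by 12 collagens in the knockout, all lower after exercise, against 4.61% of all genes on that side. In wild type 2 collagens reached it, both higher, against 3.95% of all genes on that side. With each array centred on its median, 27 of 42 collagens lay below 0 in the knockout, and with quantile normalisation 28, while in wild type quantile normalisation put 35 above 0. Leaving out the third knockout sedentary array raised the wild-type count from 2 to 5 through the shared error estimate, against 4.31% of all genes.

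Groups that did not overlap give the same sides. In wild type, 6 collagens had every exercised array above every sedentary one, against 5.75% of all genes: Col3a1, Col5a2, Col8a1, Col9a2, Col23a1 and Col26a1. In the knockout, 11 had every exercised array below every sedentary one, against 6.77% of all genes: Col1a2, Col3a1, Col4a2, Col5a1, Col5a2, Col5a3, Col6a2, Col6a3, Col6a6, Col12a1 and Col14a1. Averaged over genotypes, 6 collagens were lower after exercise at an unadjusted p under 0.05, against 5.99% of all genes, a count that ran from 1 to 8 when 1 array was left out. The share of all genes ran from 4.68% to 6.95% in those fits. For genotype averaged over conditions, 2 were lower, against 5.18% of all genes, and 2 higher, against 4.18%.

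**Figure D1:**
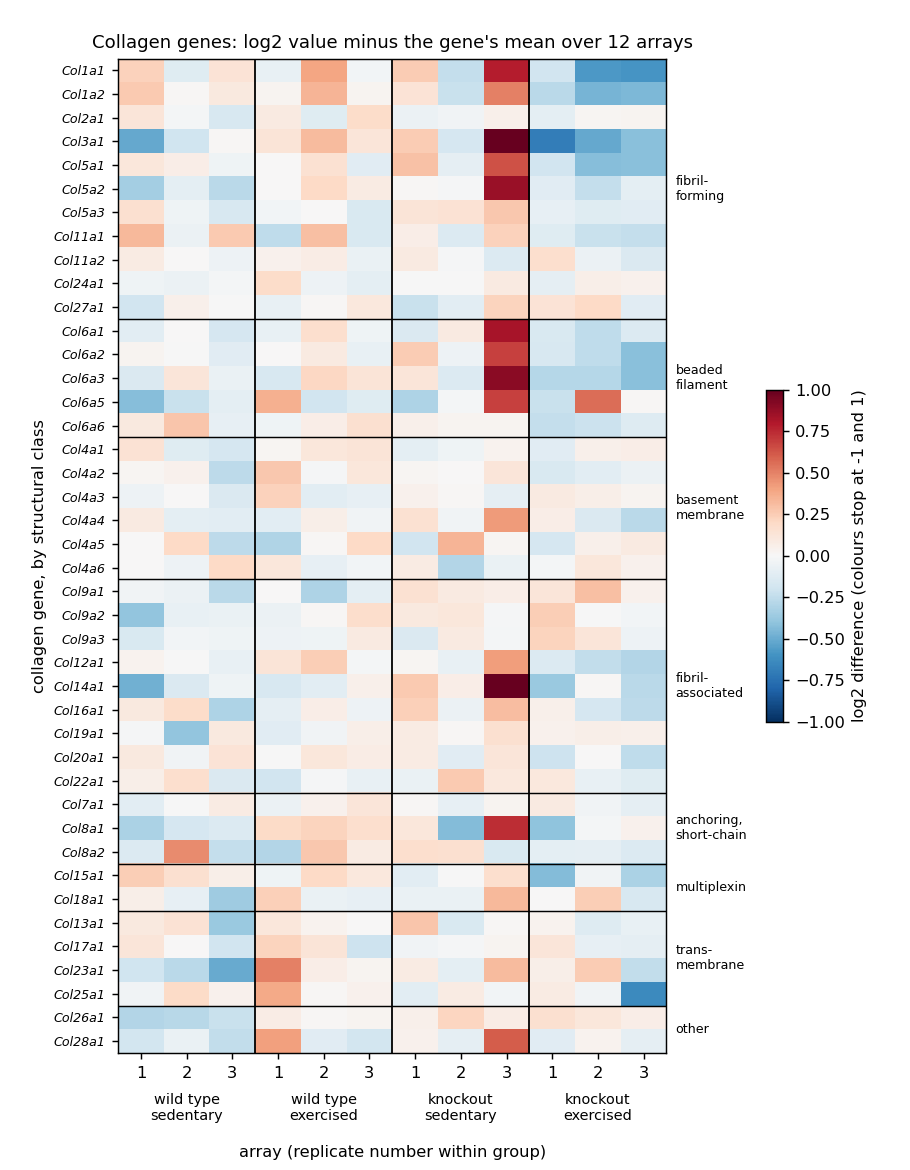
Log2 value of each of the 42 tested collagens on each of the 12 arrays, minus the gene's mean over the arrays, with genes grouped by structural class (rows) and arrays by group (columns). The third knockout sedentary array is high across fibril-forming and beaded-filament genes, with a mean over all 42 members of 0.31, and the knockout exercised arrays are low for many of the same genes.

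The fibril-forming class, 11 members and all of them tested, includes Col3a1 and Col1a1, the 2 collagens with the lowest values after exercise in the knockout. There, 9 of 11 lay below 0 with a median of -0.28, and an unadjusted p under 0.05 was reached by 6. Without the third knockout sedentary array, 8 of 11 lay below 0, the median was -0.16 and 4 reached that p. The same class in wild type had a median of 0.01, with 8 of 11 above 0. The members with an unadjusted p under 0.05 in the knockout were both type I chains, Col3a1 and the 3 type V chains.

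Col1a1 and Col1a2 encode the chains of type I collagen, the main collagen of tendon and of the connective tissue around muscle. Col1a1 had log2 levels of 10.79, 10.44 and 10.70 in sedentary wild types, 10.48, 10.95 and 10.53 in exercised wild types, 10.81, 10.32 and 11.34 in sedentary knockouts, and 10.36, 9.98 and 9.97 in exercised knockouts. The knockout groups overlap only at 10.36 after exercise and 10.32 at rest, and exercised knockouts lay below exercised wild types without overlap. The difference after exercise was -0.72 in the knockout (SE 0.20, adjusted p = 0.213) and 0.01 in wild type (SE 0.20, adjusted p = 0.993). Col1a2 had levels of 10.40, 10.14 and 10.23 in sedentary wild types, 10.16, 10.47 and 10.16 in exercised wild types, 10.27, 9.91 and 10.64 in sedentary knockouts, and 9.87, 9.67 and 9.69 in exercised knockouts. Each knockout exercised value of Col1a2 lay below all 9 other arrays. Its difference after exercise was -0.53 in the knockout (SE 0.15, adjusted p = 0.205) and 0.01 in wild type, and exercised knockout muscle stood 1.44-fold below exercised wild-type muscle (log2 -0.52, SE 0.15, adjusted p = 0.348).

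Col3a1 encodes type III collagen, which forms thin fibrils together with type I in pliable connective tissue. Its levels were 8.48, 8.79 and 8.998 in sedentary wild types, 9.12, 9.30 and 9.11 in exercised wild types, 9.24, 8.82 and 10.65 in sedentary knockouts, and 8.29, 8.48 and 8.57 in exercised knockouts. The exercised arrays lay above the sedentary ones in wild type and below them in the knockout, without overlap in either genotype. The log2 fold change was 0.42 in wild type (SE 0.31, adjusted p = 0.82) and -1.12 in the knockout (SE 0.31, adjusted p = 0.205), a 2.18-fold lower level. Much of the latter lies on the third knockout sedentary array, which exceeds the mean of the other 2 arrays of its group by 1.61. The spread of Col3a1 within groups was wider than that of 99.3% of all genes tested.

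The type V chains Col5a1, Col5a2 and Col5a3 form a minor collagen that sits inside type I fibrils and sets their width. Col5a1 had levels of 7.17, 7.12 and 7.01 in sedentary wild types, 7.06, 7.20 and 6.94 in exercised wild types, 7.35, 6.96 and 7.69 in sedentary knockouts, and 6.86, 6.63 and 6.64 in exercised knockouts. The knockout exercised values lay below those of every other array. The exercise difference in the knockout, -0.62 (SE 0.15), had the smallest p of the family (limma, adjusted p = 0.118). Col5a2 had levels of 6.60, 6.84 and 6.67 in sedentary wild types, 6.94, 7.13 and 7.02 in exercised wild types, 6.95, 6.92 and 7.80 in sedentary knockouts, and 6.82, 6.70 and 6.84 in exercised knockouts. As for Col3a1, its exercised arrays lay above the sedentary ones in wild type (0.33, SE 0.18) and below them in the knockout (-0.44, SE 0.18). Without the third knockout sedentary array, the knockout value of Col5a2 was -0.15 (SE 0.11). Col5a3 was lower by less, at -0.28 in the knockout (SE 0.10, adjusted p = 0.375), also without overlap. The remaining fibril-forming members, Col2a1, Col11a1, Col11a2, Col24a1 and Col27a1, had knockout exercise differences between -0.25 and 0.11, with adjusted p above that of Col5a3.

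**Figure D2:**
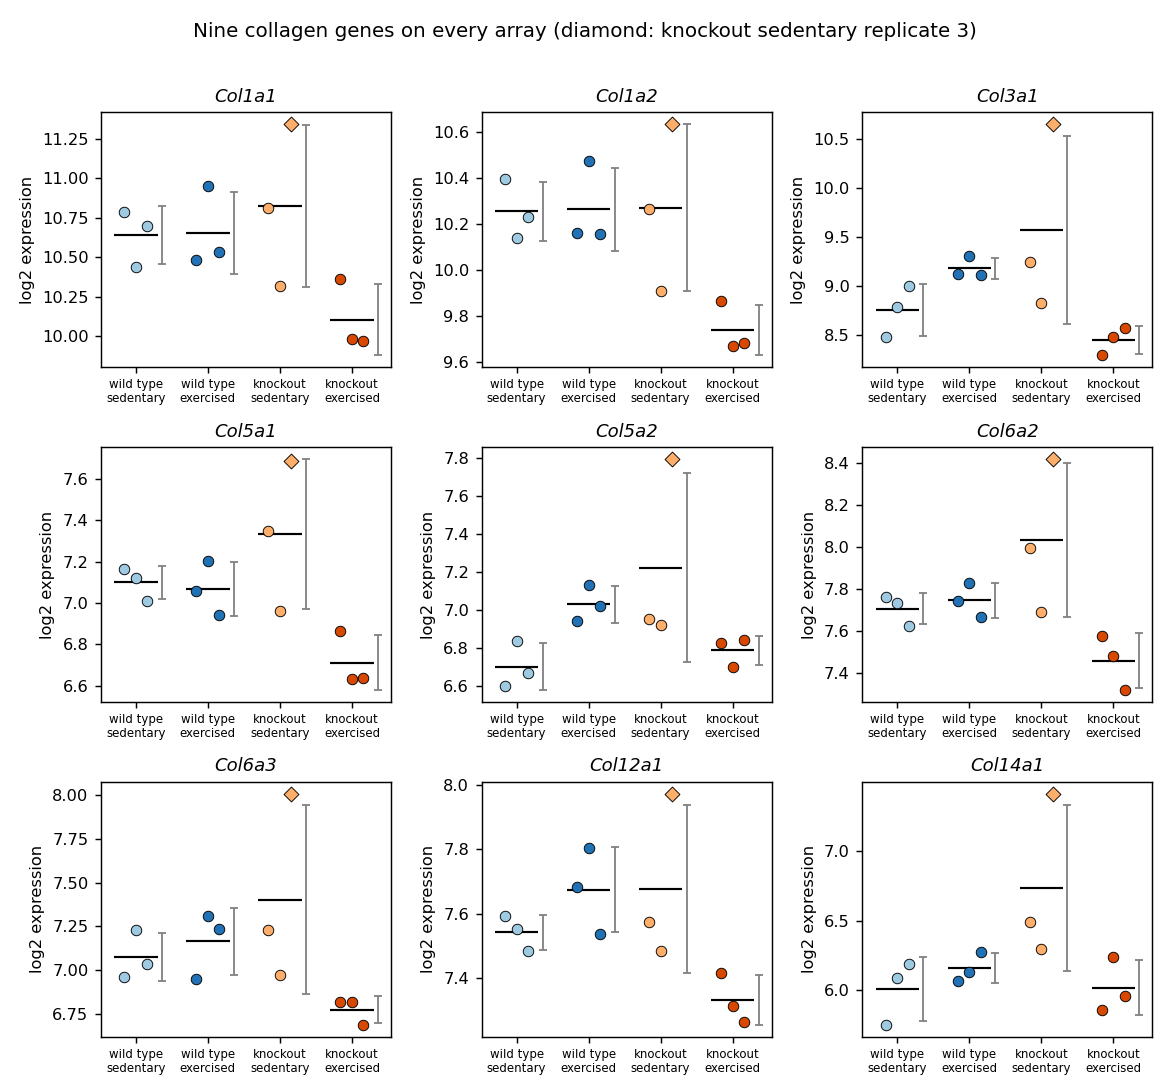
Log2 expression of 9 collagens on every array (points), with the group mean (line) and SD over 3 arrays (grey bar) and the third knockout sedentary array as a diamond; each panel has its own axis, which does not start at 0. Knockout exercised arrays lie below all others for Col1a2, Col5a1, Col6a2, Col6a3 and Col12a1, and for Col3a1 the diamond sits at 10.65, against 9.24 and 8.82 for the other arrays of its group.

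Type VI collagen forms beaded filaments that tie the fibre's basement membrane to the surrounding matrix, and loss of its chains causes inherited muscle disease. Of its 6 genes, 5 were tested. All 5 lay below 0 after exercise in the knockout, with a median of -0.44, which became 4 of 5 and -0.23 without the third knockout sedentary array, and 4 of 5 lay above 0 in wild type, with a median of 0.09. Col6a1 had levels of 8.77, 8.87 and 8.71 in sedentary wild types, 8.80, 9.04 and 8.83 in exercised wild types, 8.73, 8.97 and 9.70 in sedentary knockouts, and 8.72, 8.62 and 8.74 in exercised knockouts. Its knockout exercise difference was -0.44 (SE 0.18, adjusted p = 0.444), and the groups overlap slightly. Without the third knockout sedentary array that difference was -0.16 (SE 0.11). Col6a2 had levels of 7.76, 7.73 and 7.63 in sedentary wild types, 7.74, 7.83 and 7.66 in exercised wild types, 7.99, 7.69 and 8.42 in sedentary knockouts, and 7.57, 7.48 and 7.32 in exercised knockouts. The knockout exercised arrays lay below all others, with a difference after exercise of -0.57 (SE 0.14, adjusted p = 0.148).

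Col6a3, whose product is the long chain of type VI collagen, had levels of 6.96, 7.23 and 7.04 in sedentary wild types, 6.95, 7.31 and 7.24 in exercised wild types, 7.23, 6.97 and 8.01 in sedentary knockouts, and 6.82, 6.82 and 6.69 in exercised knockouts. Here too the knockout exercised arrays lay below all others, at -0.63 against knockout sedentary muscle (SE 0.20, adjusted p = 0.278). Col6a6 showed the same order within a narrower range, with knockout exercised values of 5.44, 5.46 and 5.55 and a difference of -0.23 (SE 0.11, adjusted p = 0.594). Col6a5 exceeded the table median on 3 arrays only, and its difference was -0.00, which the count of 5 includes.

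The fibril-associated class, 9 members tested, had a median of -0.13 after exercise in the knockout and 0.07 in wild type. Its 2 members with an unadjusted p under 0.05 in the knockout were Col12a1 and Col14a1, which bind the surface of type I fibrils in tendon and muscle connective tissue. Col12a1 had levels of 7.59, 7.55 and 7.48 in sedentary wild types, 7.68, 7.80 and 7.54 in exercised wild types, 7.57, 7.48 and 7.97 in sedentary knockouts, and 7.42, 7.31 and 7.26 in exercised knockouts. The last 3 lay below all other arrays, and the difference after exercise was -0.34 in the knockout (SE 0.12, adjusted p = 0.367) and 0.13 in wild type. Col14a1 had levels of 5.75, 6.08 and 6.18 in sedentary wild types, 6.07, 6.13 and 6.28 in exercised wild types, 6.49, 6.29 and 7.41 in sedentary knockouts, and 5.85, 6.24 and 5.96 in exercised knockouts. Its knockout sedentary arrays stood above those of every other group. The knockout exceeded wild type in sedentary muscle by 0.73 (SE 0.22, adjusted p = 0.382), and exercise in the knockout was associated with a difference of -0.71 (SE 0.22, adjusted p = 0.274).

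The type IX chains, a fibril-associated collagen known mainly from cartilage, stood on the higher side in the knockout. Col9a1 had levels of 5.22, 5.20 and 4.99 in sedentary wild types, 5.26, 4.95 and 5.16 in exercised wild types, 5.41, 5.35 and 5.33 in sedentary knockouts, and 5.38, 5.55 and 5.30 in exercised knockouts. Every knockout array lay above every wild-type array, by a mean of 0.26 over both conditions (SE 0.09, adjusted p = 0.309). Col9a2 had levels of 6.34, 6.66 and 6.67 in sedentary wild types, 6.67, 6.75 and 6.91 in exercised wild types, 6.83, 6.85 and 6.72 in sedentary knockouts, and 6.98, 6.73 and 6.70 in exercised knockouts. Between genotypes it differed by 0.25 in sedentary mice (SE 0.12, adjusted p = 0.651), without overlap, and by 0.03 in exercised mice, and Col9a3 differed by 0.05 and 0.10.

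The 6 members of the basement membrane class had a median of -0.02 after exercise in the knockout and 0.04 in wild type, and 0 of 6 had an unadjusted p under 0.05 in either. Col4a1 and Col4a2 encode the chains that make up type IV collagen in most basement membranes. Col4a1 had levels of 7.64, 7.37 and 7.32 in sedentary wild types, 7.51, 7.60 and 7.62 in exercised wild types, 7.39, 7.45 and 7.52 in sedentary knockouts, and 7.38, 7.54 and 7.56 in exercised knockouts. These groups overlap throughout, and the 95% interval of the knockout exercise difference ran from -0.19 to 0.26. Col4a2 had levels of 7.16, 7.19 and 6.89 in sedentary wild types, 7.42, 7.13 and 7.26 in exercised wild types, 7.17, 7.15 and 7.27 in sedentary knockouts, and 6.99, 7.04 and 7.08 in exercised knockouts. Its exercised arrays were lower in the knockout than in wild type without overlap (-0.23, SE 0.11, adjusted p = 0.754). The minor chains Col4a3, Col4a4, Col4a5 and Col4a6 had knockout exercise differences between -0.30 and 0.14.

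Among the smaller classes, the members with the smallest p were higher after exercise in wild type. Col23a1, a transmembrane collagen, had levels of 5.67, 5.60 and 5.36 in sedentary wild types and 6.37, 5.93 and 5.89 in exercised wild types, a difference of 0.52 (SE 0.16, adjusted p = 0.273) and the smallest p of the family there. In the knockout its levels were 5.95, 5.77 and 6.18 at rest and 5.92, 6.12 and 5.62 after exercise. Both knockout groups overlapped each other and the exercised wild types. Col26a1 had levels of 4.74, 4.75 and 4.81 in sedentary wild types, 5.10, 5.04 and 5.06 in exercised wild types, 5.08, 5.25 and 5.10 in sedentary knockouts, and 5.19, 5.14 and 5.10 in exercised knockouts. The wild-type sedentary arrays lay below all 9 others, and Col26a1 differed by 0.30 after exercise in wild type (SE 0.11, adjusted p = 0.405) and by 0.38 between genotypes at rest (SE 0.11, adjusted p = 0.329). Col8a1, a short-chain collagen of vessel walls and other tissues, had levels of 5.52, 5.67 and 5.70 in sedentary wild types, 6.03, 6.06 and 6.01 in exercised wild types, 5.96, 5.41 and 6.58 in sedentary knockouts, and 5.44, 5.82 and 5.89 in exercised knockouts. The wild-type difference of Col8a1 was 0.40 (SE 0.21, adjusted p = 0.691).

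Col15a1, a multiplexin of the muscle and capillary basement membrane zone, had levels of 6.52, 6.43 and 6.33 in sedentary wild types, 6.23, 6.47 and 6.38 in exercised wild types, 6.17, 6.27 and 6.44 in sedentary knockouts, and 5.84, 6.23 and 5.96 in exercised knockouts. Of the exercised knockout arrays, 2 lay below all others, while the one at 6.23 lay within the ranges of sedentary knockouts and exercised wild types. The genotypes differed by -0.35 after exercise (SE 0.12, adjusted p = 0.529). Its relative Col18a1, from which endostatin is cut, differed by 0.00 there.

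**Figure D3:**
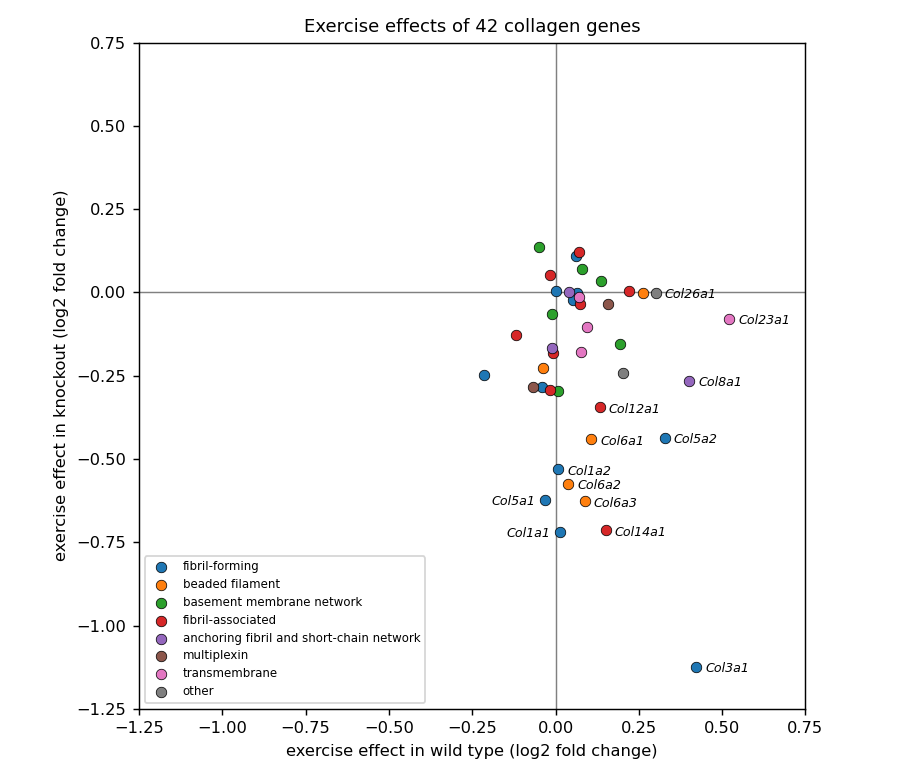
Log2 fold change after exercise in wild type (horizontal) against that in the knockout (vertical) for the 42 tested collagens, coloured by structural class; the 2 axes use different mice. Of the 42 points, 23 lie in the lower right quadrant, above 0 in wild type and below 0 in the knockout, with Col3a1 farthest out at 0.42 and -1.12.

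Whether the response depended on genotype is given by the difference of the exercise effects, knockout minus wild type. It lay below 0 for 37 of 42 collagens, where 46.8% of all genes did, with a median of -0.22 against 0.02 over all genes. Most members of nearly all other gene lists given below also lay below 0, so the side was not particular to collagens. By class, the median was -0.55 for beaded-filament members, -0.37 for Col26a1 and Col28a1, -0.24 for fibril-forming, -0.23 for transmembrane, -0.20 for multiplexin, -0.18 for fibril-associated, -0.16 for anchoring and short-chain and -0.08 for basement membrane members. Without the third knockout sedentary array the beaded-filament median was -0.26, that of the multiplexins -0.10 and that of the anchoring and short-chain members -0.26. An unadjusted p under 0.05 was reached by 13 collagens, all negative, against 2.36% of all genes on that side. Col3a1 led at -1.55 (SE 0.44), followed by Col5a2 at -0.76 (SE 0.25), Col6a2 at -0.61 (SE 0.20), Col5a1 at -0.59 (SE 0.21), Col14a1 at -0.86 (SE 0.31) and Col12a1 at -0.48 (SE 0.17). None passed over all genes, and the limma adjusted p was 0.997 for each. Of 42 collagens, 23 lay above 0 in wild type and below 0 in the knockout, a combination shown by 19.6% of all genes.

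In sedentary muscle, 34 of 42 collagens had a knockout minus wild-type difference above 0, where 46.0% of all genes did, with a median of 0.13. That median was 0.06 without the third knockout sedentary array and 0.21 without the second. An unadjusted p under 0.05 was reached by 6, all higher in the knockout, against 3.32% of all genes on that side: Col26a1, Col14a1, Col5a2, Col3a1, Col23a1 and Col6a2. All knockout arrays lay above all wild-type arrays for 7 collagens, against 5.35% of all genes. In exercised muscle 30 of 42 lay below 0, where 50.7% of all genes did, with a median of -0.10. An unadjusted p under 0.05 was reached by 8 on the lower side, against 3.41% of all genes, led by Col1a2, and by 1, Col9a1, on the higher side, against 3.17%. All knockout arrays lay below all wild-type arrays for 12 collagens, against 5.67% of all genes. The count of 8 became 2 without the second wild-type exercised array and 5 without the third, and 5 without each of the 3 knockout exercised arrays in turn. In those fits 2.34% to 3.70% of all genes were as extreme on that side. These comparisons share their arrays with the exercise comparisons and add no separate evidence.

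A pattern looked for after the values were seen concerns only the order of the arrays. For 6 of 42 collagens, Col1a2, Col5a1, Col6a2, Col6a3, Col6a6 and Col12a1, all 3 knockout exercised arrays lay below the other 9. Of all genes tested, 0.735% did so. The opposite order, all 3 above the other 9, was shown by 0 of 42 collagens and 0.866% of all genes.

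The third knockout sedentary array bears on the sedentary knockout values. Its collagen level, averaged over the 42 members after each gene's mean on 12 arrays was subtracted, was 0.31, against 0.05 and -0.03 in the other arrays of its group, -0.10 to -0.01 in sedentary wild types, 0.01 to 0.06 in exercised wild types and -0.16 to -0.06 in exercised knockouts. Members over 0.5 above the mean of the other 2 arrays of the group numbered 12. Without this array, 27 of 42 collagens lay below 0 after exercise in the knockout, 25 of them also below it with every array, and the median was -0.12. The 7 with an unadjusted p under 0.05, all among the 12 found with every array, were Col1a1 (-0.46, SE 0.18), Col1a2 (-0.35, SE 0.13), Col3a1 (-0.59, SE 0.16), Col5a1 (-0.44, SE 0.14), Col6a2 (-0.38, SE 0.12), Col6a3 (-0.33, SE 0.14) and Col14a1 (-0.37, SE 0.15). Of all genes, 3.29% were as extreme on that side. For the difference of exercise effects, 36 of 42 lay below 0, where 46.0% of all genes did, and 35 of them were also below it with every array. An unadjusted p under 0.05 was kept by 7 of 13, with Col3a1 at -1.01 (SE 0.21). In that fit 1.67% of all genes were as extreme on that side. The sedentary genotype count was 2 in place of 6, against 2.92% of all genes on the higher side. The 2 were Col14a1 (0.39, SE 0.15) and Col26a1 (0.40, SE 0.13). That count was 12 without the second knockout sedentary array, against 3.72% of all genes. Without the second knockout sedentary array, the lowest of its group for 21 of 42 collagens, 4 collagens passed for exercise in the knockout. Of all genes, 0.211% passed in that fit. The 4 were Col5a1 (-0.81, adjusted p = 0.0256), Col6a2 (-0.75, adjusted p = 0.0428), Col1a1 (-0.97, adjusted p = 0.0478) and Col3a1 (-1.50, adjusted p = 0.0498). The sedentary knockout mean in that fit still includes the array that stood apart, with Col3a1 at 9.24 and 10.65 on the arrays kept. With the array that stood apart left out instead, the smallest adjusted p of a collagen for exercise in the knockout was 0.246 (limma, Col3a1).

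**Figure D4:**
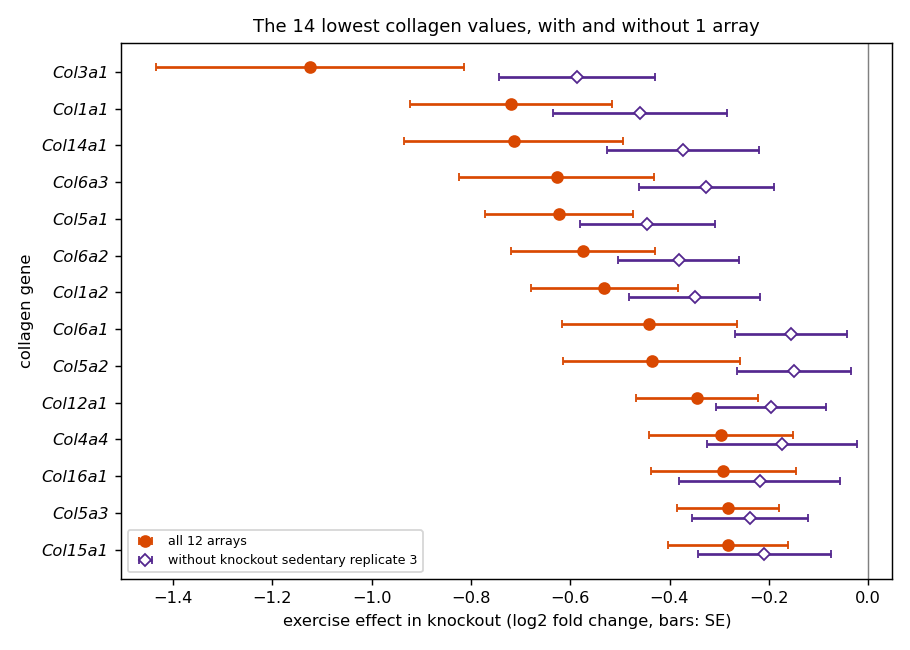
Log2 fold change after exercise in the knockout, with SE, for the 14 collagens with the lowest values, from all 12 arrays (filled circles) and without the third knockout sedentary array (open diamonds). All 14 values stay below 0 without it, and each is nearer to 0, as for Col3a1 at -0.59 in place of -1.12.

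Markers of other cells moved with the collagens on some arrays, and their part in these results was not tested. The fibroblast list, with no collagens in it and 11 of 12 members tested, was highest on the third knockout sedentary array at 0.28 and ranged from -0.05 to 0.28 in sedentary knockouts, -0.12 to -0.05 in sedentary wild types, -0.06 to 0.12 in exercised wild types and -0.10 to 0.01 in exercised knockouts. After exercise, 9 of its 11 members lay below 0 in the knockout, or 7 of 11 without that array, and 4 of 11 in wild type, and 0 were called. The Schwann cell and nerve list (9 of 12 tested) stood at 0.66 on that array, but also at 0.66 on the first wild-type exercised and 0.51 on the second knockout exercised array, where the collagens stood at 0.04 and -0.06. Of its 9 members, 4 lay below 0 after exercise in the knockout and 1 in wild type. The tendon list (10 of 10 tested) stood at 0.01 on the third knockout sedentary array. It ranged from -0.06 to 0.19 in sedentary knockouts and from -0.24 to 0.02 in exercised knockouts. In sedentary and exercised wild types it ranged from -0.04 to 0.13 and from -0.12 to 0.15. After exercise, 9 of its 10 members lay below 0 in the knockout (median -0.21) and 4 of 10 in wild type (median 0.02). Without the third knockout sedentary array, 9 of 10 lay below 0 in the knockout (median -0.25). The macrophage and leukocyte list (11 of 12 tested) ranged from -0.25 to 0.29 in sedentary knockouts and from -0.10 to -0.04 in exercised knockouts. Its ranges were -0.17 to 0.11 in sedentary and 0.00 to 0.10 in exercised wild types. Of its 11 members, 9 lay below 0 after exercise in the knockout, or 7 without the third knockout sedentary array, and 1 in wild type. The smooth muscle and pericyte list (10 of 10) ranged from 0.06 to 0.19 in sedentary and from -0.22 to -0.09 in exercised knockouts. Its ranges were -0.12 to 0.10 in sedentary and -0.13 to 0.27 in exercised wild types. All 10 of its members lay below 0 after exercise in the knockout (median -0.24), or 9 of 10 without the third knockout sedentary array. In wild type 5 of 10 did (median -0.01). Its 1 member called, Notch3, differed by -0.46 when exercise was averaged over genotypes (SE 0.11, limma adjusted p = 0.0475). The endothelial list (12 of 12 tested) ranged from 0.05 to 0.12 in sedentary wild types, -0.08 to -0.04 in exercised wild types, 0.08 to 0.14 in sedentary knockouts and -0.21 to -0.03 in exercised knockouts. After exercise, 7 of its 12 members lay below 0 in wild type (median -0.11) and 11 of 12 in the knockout (median -0.25). The 1 member called in each genotype was Kdr, a receptor for vascular growth factor. Kdr fell by 0.76 in wild type (SE 0.12, adjusted p = 0.00582) and by 0.84 in the knockout (SE 0.12, adjusted p = 0.00492). Its fellow member Cdh5 differed by -0.28 when exercise was averaged over genotypes (SE 0.07, limma adjusted p = 0.0448). The adipocyte list (6 of 8 tested) ranged from -0.20 to 0.41 in sedentary knockouts and from -0.21 to 0.05 in exercised knockouts. Its ranges were -0.41 to 0.17 in sedentary and -0.06 to 0.20 in exercised wild types. All 6 of its members lay below 0 after exercise in the knockout and 1 in wild type. The difference of exercise effects was below 0 for 11 of 11 fibroblast, 11 of 11 macrophage, 9 of 10 smooth muscle and 6 of 6 adipocyte markers. Tendon markers had 9 of 10, endothelial 10 of 12, Schwann cell 8 of 9 and muscle fibre 5 of 12. These counts include the third knockout sedentary array.

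**Figure D5:**
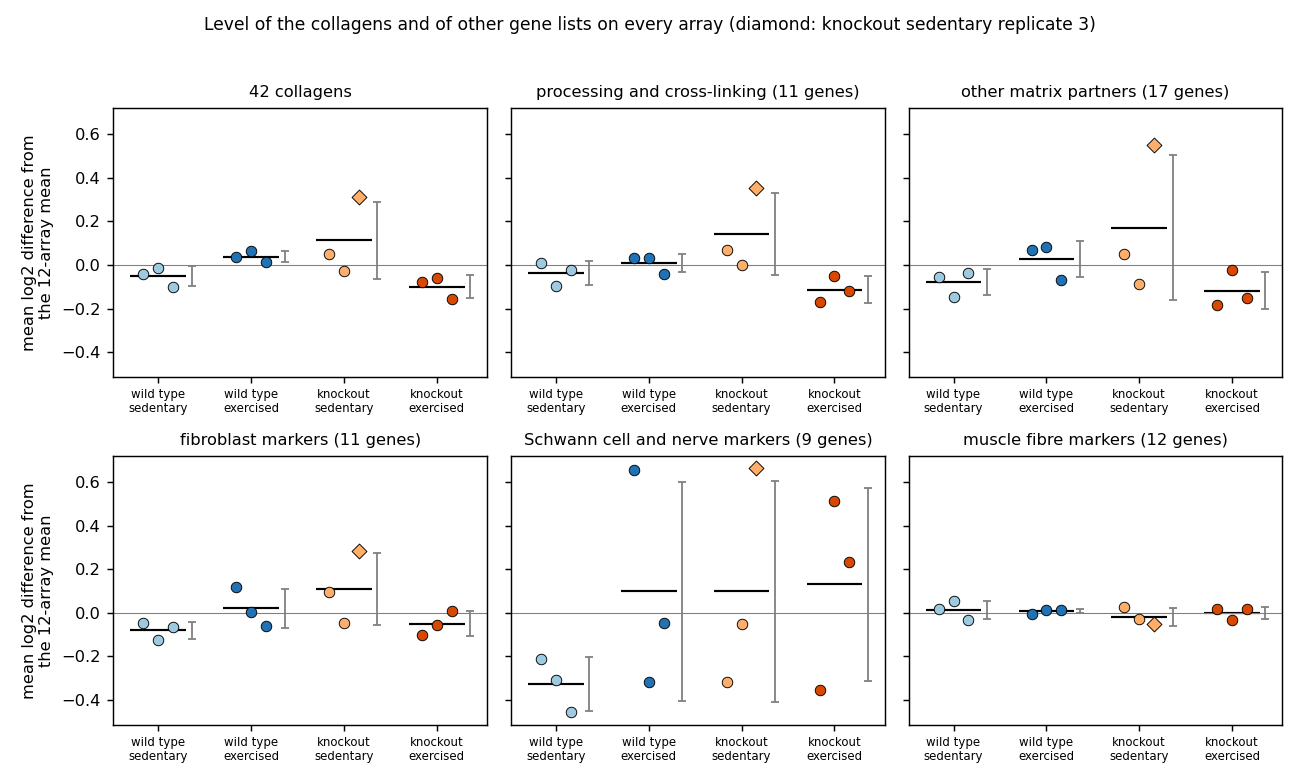
Mean log2 difference from the 12-array mean for the collagens, 2 lists of matrix genes and 3 marker lists, on every array (points), with group mean (line) and SD over 3 arrays (grey bar). The third knockout sedentary array (diamond) is highest in the upper row, at 0.31 for the collagens and 0.55 for other matrix partners, and muscle fibre markers stay near 0 on all arrays.

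Genes that make, cut and anchor collagen were counted from lists of known members. Of 17 tested enzymes and chaperones that modify the chains, 0 were called in either genotype, and 13 lay below 0 after exercise in the knockout, with a median of -0.10. P4ha2, a prolyl hydroxylase subunit that stabilises the triple helix, went the other way: it rose when exercise was averaged over genotypes (0.30, SE 0.07, adjusted p = 0.0347), with 0.21 in wild type and 0.39 in the knockout. The 11 tested genes of procollagen processing and cross-linking had a median of -0.27 in the knockout, with 9 below 0, and 0.05 in wild type. Pcolce, the enhancer of the procollagen C-proteinase, had levels of 7.75, 7.81 and 7.78 in sedentary wild types, 7.91, 8.05 and 7.97 in exercised wild types, 8.12, 7.73 and 8.22 in sedentary knockouts, and 7.41, 7.69 and 7.54 in exercised knockouts. Its exercised arrays lay above the sedentary ones in wild type (0.19, SE 0.12) and below them in the knockout (-0.47, SE 0.12, adjusted p = 0.158). Loxl1, a lysyl oxidase known for elastic fibre assembly, differed by 0.11 in wild type and by -0.46 in the knockout (SE 0.12, adjusted p = 0.164).

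Other matrix partners of collagen, 17 tested, had a median of -0.21 after exercise in the knockout, 14 of them below 0, and 0.04 in wild type. Bgn, the small proteoglycan biglycan that binds type I and type VI collagen, differed by 0.37 in wild type (SE 0.21) and -0.70 in the knockout (SE 0.21, adjusted p = 0.248). Its level was 11.40 on the third knockout sedentary array, against 10.44 and 10.40 on the others of its group. Fn1, the matrix glycoprotein fibronectin, differed by 0.23 and -0.81 (SE 0.26 for each, adjusted p = 0.3 in the knockout), with 11.08 on the third knockout sedentary array against 9.77 and 9.60 on the others of its group. The 10 tested collagen-degrading proteases and inhibitors had a median of -0.33 in the knockout and 0.01 in wild type. Timp3, a matrix-bound protease inhibitor, rose when exercise was averaged over genotypes (0.31, SE 0.07, adjusted p = 0.0263). The 8 tested collagen receptors had medians of -0.25 and -0.09, and Adgrg1, an adhesion receptor that binds type III collagen, rose after exercise in wild type (0.56, SE 0.12, adjusted p = 0.0479). Adgrg1 stood 0.22 higher after exercise in the knockout (SE 0.12, limma adjusted p = 0.64). It was also called when exercise was averaged over genotypes (0.39, SE 0.08, limma adjusted p = 0.0251).

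The TGF-beta list, which holds activators and repressors of a pathway known to drive collagen transcription in fibroblasts, had 18 tested members, with a median of 0.04 in the knockout and 0.05 in wild type. Ccn2, a matricellular protein induced by TGF-beta and by load, had levels of 7.49, 7.49 and 7.86 in sedentary wild types and 8.67, 8.53 and 8.30 in exercised wild types, and it rose by 0.89 (SE 0.14, adjusted p = 0.0046). In the knockout Ccn2 stood 0.67 higher after exercise (SE 0.14, adjusted p = 0.0557), and the difference between genotypes was -0.22 (SE 0.19, adjusted p = 0.997). Skil, a repressor of SMAD signalling that TGF-beta itself regulates, rose in wild type by 0.65 (SE 0.11, adjusted p = 0.009) and stood 0.38 higher in the knockout (SE 0.11, adjusted p = 0.224).

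Without the third knockout sedentary array, the median after exercise in the knockout was -0.02 for the modifying enzymes, -0.17 for processing and cross-linking, -0.12 for other matrix partners, -0.23 for proteases and inhibitors, -0.17 for receptors and 0.10 for the TGF-beta list. With that array left out, 9 of 17 modifying enzymes lay below 0 and 12 of 17 matrix partners. With every array, the difference of exercise effects was below 0 for 11 of 11 processing genes and 16 of 17 matrix partners. The counts were 12 of 17 modifying enzymes, 9 of 10 proteases and inhibitors, 6 of 8 receptors and 14 of 18 TGF-beta members. Without the third knockout sedentary array it was below 0 for 9 of 11 processing genes, 12 of 17 matrix partners and 8 of 17 modifying enzymes.

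Neighbouring members could be compared through the order of genes in RefSeq GRCm38.p6. Col3a1 and Col5a2 lie next to each other, and they are the 2 collagens whose exercised arrays lay above the sedentary ones in wild type and below them in the knockout without overlap, an order shown by 0.182% of all genes. Col6a1 and Col6a2, also next to each other, differed by -0.44 and -0.57 after exercise in the knockout, while Col4a1 and Col4a2, which start from a shared region in opposite directions, differed by 0.03 and -0.16, and Col9a1 and Col19a1 by 0.05 and -0.03. Rows that the rule set aside bear on 3 members. The second row of Col1a2 gave -0.36 for exercise in the knockout, against -0.53 for the row used. The second row of Col6a1 gave -0.18 against -0.44, and that of Col5a1, whose mean of 4.29 lies below the table median, gave -0.08 against -0.62.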

How the data were processed

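Total RNA (300 ng) was labelled for Affymetrix whole-transcript arrays, per the labels' protocols. The authors deposited log2 expression values per transcript cluster, a scale read from the range of 0.36 to 13.9; Partek is named in the submitters' processing notes, and background correction, normalisation, summarisation and log base are not given in the sources used here. The number of arrays limits the precision. Array medians lay between 4.52 and 4.60. Of 41345 rows, 23521 had 1 gene symbol on the platform, 1814 several and 16010 none; 23328 matched RefSeq GRCm38.p6. R 4.3.3 and limma 3.58.1 (lmFit, eBayes with trend) fitted 1 mean per group over all 12 arrays, with 7 contrasts. P-values are two-sided and adjusted by Benjamini-Hochberg over the 13747 genes tested. Replicate numbers follow accession order and pair nothing. The fit was tested on simulated data. The members and gene lists were chosen with earlier results of these data known. Values on every array are given for the 6 collagens with the smallest p in each of 5 contrasts and 8 set members. From each pathway list the text names the called genes, or otherwise the 2 with the smallest p for the difference of exercise effects. Alternatives were another normalisation, filter, prior, array weights, choice of row, a fit of only the groups compared, and leaving out each array.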

Additional observations from a re-analysis of the deposited data

Results flagged for a closer look

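For Col3a1 and Col5a2, every exercised array lay above every sedentary array in wild type and below every sedentary array in the knockout, so the exercise effects pointed in opposite directions. The difference of effects, knockout minus wild type, was -1.55 for Col3a1 (SE 0.44) and -0.76 for Col5a2 (SE 0.25). Neither passed over all genes (limma, adjusted p = 0.997 for both). Without the third knockout sedentary array the values were -1.01 and -0.48. The exercise effects in the knockout were then -0.59 for Col3a1 (SE 0.16) and -0.15 for Col5a2 (SE 0.11). The within-group SD of Col5a2 exceeded that of 88.2% of all genes tested.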

How the results depend on the processing

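The count of collagens called was 0 in every comparison under the 9 settings that kept all arrays. Leaving out each array gave 0 to 4 for exercise in the knockout and 0 to 1 for exercise averaged over genotypes. Both were highest without the second knockout sedentary array, and the count was 0 in the other comparisons. Without that array, 29 of 13747 genes tested (0.211%) were called for exercise in the knockout. For exercise averaged over genotypes, 188 of the 13747 were called, beside 1 of 42 collagens. The family's median log2 fold change for exercise in the knockout ran from -0.21 to -0.12 and that for the difference of effects from -0.28 to -0.19 when arrays were left out. The median for genotype averaged over conditions turned from 0.03 to -0.02 with array weights and without the third knockout sedentary array, and to -0.00 without the third wild-type sedentary array, and that for averaged exercise from -0.03 to 0.00 without the second wild-type sedentary array. The 30 comparisons of 15 named members kept their direction in each of 264 values from other settings and 360 values with an array left out. These members were picked for the smallest p in the same data, so a kept direction was likely from the start. In the whole family, 8 collagens lay below 0 after exercise in the knockout only with the third knockout sedentary array included. No paired analysis was possible because the labels number the samples through the whole series and no number is shared between groups. Groups of 3 arrays limit what could be called, and a p that misses the threshold does not show that levels were equal.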
